A study of Mus musculus with 6 samples.

Results

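Heterotrimeric G proteins and the regulators of G protein signalling (RGS) that switch them off were followed here through 10 genes of mouse platelets. They are the alpha subunit genes Gnas, Gnai2, Gnaz, Gnaq and Gna13, the beta subunit gene Gnb1, the gamma subunit gene Gng11, the RGS genes Rgs10 and Rgs18, and Plcb2, which encodes a phospholipase C. The 10 genes and the gene lists used below were chosen by name, with earlier results of these data known. Their shares of called genes are therefore descriptions and not a neutral comparison with all genes. The 10 genes were matched by Entrez identifier, and all 10 were among the 9822 genes of the deposited tables. The libraries came from platelets of mice that carry 1 Nxf1 allele with the C587R change (genotype Nxf1+/C587R, called mutant below) and from wild-type littermates, with 3 libraries per genotype. Nxf1 encodes the main export receptor of mRNA, and platelets are anucleate cells that inherit their mRNA from megakaryocytes. All mice were males on the BalB/c background, the labels give no ages, and no treatment is named. Each library was made from polyA RNA of pooled platelet suspensions, in which CD41+ platelets made up over 98% of flow cytometry events. The labels give each pool a preparation batch, with 1 mutant and 1 wild-type pool in each of 3 batches, so replicate 1 of both genotypes belongs to batch 1, and so on.

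A G protein consists of an alpha subunit, which binds GTP when a receptor activates it, and a beta-gamma pair that signals on its own once released. Platelet agonists act through Gq, which turns on phospholipase C beta and calcium release, through Gi, which lowers cyclic AMP and activates phosphoinositide 3-kinase, and through the G13 class, which drives shape change. Prostacyclin acts through Gs, which raises cyclic AMP and holds platelets at rest, and RGS proteins speed up the hydrolysis of GTP by alpha subunits and so end the signal.

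Among the 10 genes, 4 were higher and 1 was lower in mutant platelets by edgeR, at a Benjamini-Hochberg adjusted p of at most 0.05 over all genes and with genotype as the only term. Over all 9822 genes 12.9% were called higher and 9.16% lower. Gnaz, Gnai2, Gnb1 and Gna13 rose, and Gng11, by far the most abundant of the 10, fell to 9931 ± 1275 CPM (counts scaled to the library's TMM-adjusted total) in mutants, against 19719 ± 2953 CPM in wild types (SD, n = 3 each). With the preparation batch as a block Gnaq was also called higher and Rgs18 lower, which made 5 higher and 2 lower, and 22.0% of all genes were then called higher and 18.0% lower. DESeq2 with the same block also called 5 of the 10 genes higher and 2 lower, beside 16.1% and 9.29% of all genes. Gnas, Rgs10 and Plcb2 were not called in either fit. The median log2 fold change was 0.22 over the 10 genes and -0.04 over all genes. Of the 10 genes only Plcb2 averaged under 10 CPM, so neither these medians nor the shares above compare genes of like level. When only genes averaging at least 10 CPM were fitted, their median was -0.02. Log2 fold changes in that fit were lower than in the main fit by a median of 0.164.

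The libraries held 25483332 to 29421549 counts in mutants and 25189231 to 26974129 in wild types. All 14 platelet markers were measured, and their summed level was 44768 to 49416 CPM in mutants and 35257 to 42603 CPM in wild types. In the same order, B cell markers summed to 204.8 to 266.8 and 254.8 to 351.7 CPM, with 10 of 10 measured, and T cell markers to 20.5 to 24.6 and 23.6 to 29.7 CPM, with 8 of 10. Neutrophil markers summed to 11.5 to 18.6 and 11.1 to 17.0 CPM, with 3 of 10, and the 6 of 10 endothelial markers to 1558 to 1637 and 1210 to 1515 CPM, most of it Pecam1, which platelets also express. The 9 of 10 monocyte markers summed to 1797 to 2111 and 1193 to 1637 CPM, nearly all of it Lyz2 (1913 and 1358 CPM on average). Of these 9 markers 1 was called higher and 3 lower, beside 12.9% and 9.16% of all genes, so the sum does not speak for the list. The blocked counts were also 1 and 3, beside 22.0% and 18.0%. Erythroid markers stood apart in batch 1, at 31520 CPM in the mutant and 35719 CPM in the wild-type library, and lay between 3972 and 4564 CPM in the other mutants and between 4309 and 4430 CPM in the other wild types. In bulk RNA, fewer cells of a type and less RNA per cell cannot be told apart.

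The upstream sequences of Gna13 and Gnb1, which rose, and of Gnaq, which was called only with the block, are shown as those of the genes with a window that edgeR called higher in either fit, with that of Plcb2, which was called in neither fit. The windows of Gnas and Rgs10, also called in neither, are not printed. RefSeq promoter windows (GRCm38.p6) were matched for 6 of the 10 genes, and Gnai2, Gnaz, Gng11 and Rgs18 had no entry. Each line gives the 250 bases before the annotated start, 5′ to 3′ on the strand of the gene, at chr11:109362544-109362793 (plus) for Gna13, chr4:155491111-155491360 (plus) for Gnb1, chr19:16132434-16132683 (plus) for Gnaq and chr2:118728439-118728688 (minus) for Plcb2. The start is that of 1 RefSeq transcript, and the gene spans given below cover all transcripts, so the windows of Gnb1 and Plcb2 reach into the span. Capitals mark the GC box GGGCGG and the ETS core CCGGAA on either strand.
Gna13: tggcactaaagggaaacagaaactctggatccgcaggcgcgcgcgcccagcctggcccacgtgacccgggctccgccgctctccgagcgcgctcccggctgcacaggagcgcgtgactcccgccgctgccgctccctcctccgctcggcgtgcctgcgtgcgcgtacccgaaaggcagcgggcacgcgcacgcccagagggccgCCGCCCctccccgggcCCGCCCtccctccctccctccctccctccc
Gnb1: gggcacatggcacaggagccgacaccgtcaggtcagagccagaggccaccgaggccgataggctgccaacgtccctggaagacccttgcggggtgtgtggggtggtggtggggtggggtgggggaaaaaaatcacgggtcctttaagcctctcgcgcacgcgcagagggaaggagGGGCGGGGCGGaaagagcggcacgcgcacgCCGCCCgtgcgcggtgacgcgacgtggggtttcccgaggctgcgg
Gnaq: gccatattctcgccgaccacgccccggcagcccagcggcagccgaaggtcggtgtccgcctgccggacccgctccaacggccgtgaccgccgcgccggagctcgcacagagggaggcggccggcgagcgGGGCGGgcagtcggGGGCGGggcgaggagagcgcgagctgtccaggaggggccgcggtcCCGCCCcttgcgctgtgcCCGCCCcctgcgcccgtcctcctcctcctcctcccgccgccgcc
Plcb2: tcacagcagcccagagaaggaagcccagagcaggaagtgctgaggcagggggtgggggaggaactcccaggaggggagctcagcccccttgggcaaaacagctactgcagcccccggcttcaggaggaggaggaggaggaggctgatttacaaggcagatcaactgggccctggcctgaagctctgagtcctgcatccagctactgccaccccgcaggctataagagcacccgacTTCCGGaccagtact

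These windows are rich in G and C, at 76.0% for Gna13, 69.2% for Gnb1, 79.2% for Gnaq and 62.0% for Plcb2, against a median of 52.4% over 32526 windows. GC boxes occurred at 2 places in Gna13, 3 in Gnb1, of which 2 overlap by 1 base, and 4 in Gnaq, with none in Plcb2. Among all windows, 33.0% hold at least 1. The windows not printed held GC boxes too, although their genes were called in neither fit. Rgs10 had 2, at 76.4% G and C, and windows 1, 2, 3 and 4 of Gnas had 0, 1, 0 and 2. The GC box thus did not separate called from uncalled genes. Plcb2 held the ETS core 15 bases before its start, as do 12.1% of all windows at any place. The GATA motif AGATAA (9.97% of all windows), the RUNX motif TGTGGT (14.0%) and the AP-1 type motif TGAGTCA (4.45%) were searched on both strands. They were in none of the 4 printed windows. The GC box was added to the search after the windows had been seen.

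Gnas encodes the stimulatory alpha subunit, which the prostacyclin receptor uses to activate adenylyl cyclase (Entrez 14683, chromosome 2, 174284320 to 174346744, mm10). Its level was 3997, 3974 and 3493 CPM in mutant replicates 1, 2 and 3, and 3774, 3939 and 2997 CPM in wild-type replicates 1, 2 and 3. The genotypes overlapped, with the lowest value of each in batch 3. Mutant over wild type came to 0.10 ± 0.13 on the log2 scale (SE, edgeR adjusted p = 0.640), and it was -0.01 without wild-type replicate 3 (adjusted p = 0.949) and -0.06 among genes averaging at least 10 CPM (0.448). Exons of Gnas share 1469 bases with the oppositely transcribed Gm20721 and 988 with the antisense gene Nespas, and the library kit does not mark strand, so its value is uncertain to that extent.

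Gnai2, the Gi subunit through which the ADP receptor P2Y12 signals in platelets (Entrez 14678, chromosome 9, 107614125 to 107635391), was at 961.4, 1009 and 889.8 CPM in mutants. Wild types had 704.6, 725.9 and 622.5 CPM. All mutant libraries were above all wild-type libraries. Gnai2 rose by 0.48 ± 0.12 on the log2 scale, or 1.39-fold (SE, adjusted p = 0.00508 by edgeR), and the ratio within batches was 0.45, 0.48 and 0.52. The call was lost in 4 of 9 fits that each left out 1 library or 1 batch, all with genotype as the only term. Those were the edgeR fits without mutant replicate 1 (adjusted p = 0.0657), mutant replicate 2 (0.108), batch 1 (0.134) or batch 2 (0.166).

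Gnaz encodes a Gi class subunit that carries the epinephrine signal in mouse platelets (Entrez 14687, chromosome 10, 74967177 to 75016907). Mutant libraries held 90.6, 78.0 and 78.7 CPM and wild-type libraries 53.4, 46.8 and 48.3 CPM. The groups were apart, and batch 1 was the highest in both. Its log2 fold change of 0.74 ± 0.12 was the largest rise of the 10 genes (SE, 1.67-fold, adjusted p = 0.00012 by edgeR). Gnaz was called in all 9 left-out fits, with a highest adjusted p of 0.0107, and in the other 10 alternatives.

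Gnaq, whose loss in mice stops platelet aggregation to several agonists (Entrez 14682, chromosome 19, 16132684 to 16388520), had 81.8, 62.3 and 63.1 CPM in mutants. Wild types had 65.2, 50.1 and 47.8 CPM. The genotypes overlapped, because the wild-type library of batch 1 exceeded the mutant libraries of batches 2 and 3, while within each batch the mutant was higher. On the log2 scale mutant over wild type came to 0.35 ± 0.14 (SE, edgeR adjusted p = 0.0824), and with the replicate block it was 0.35 ± 0.07 (adjusted p = 3.5e-06). Within batches the ratio was 0.33, 0.32 and 0.40. Gnaq passed in 2 of 9 left-out fits, without mutant replicate 3 (0.41, adjusted p = 0.037) and without wild-type replicate 1 (0.46, adjusted p = 0.0411). Its log2 fold change was 0.16 without mutant replicate 1 (adjusted p = 0.567) and 0.15 without the 10 most abundant genes (0.533). The left-out fits had no block, so dropping 1 library broke a batch pair, and these values also carry the difference between batches.

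Gna13, a subunit that drives shape change (Entrez 14674, chromosome 11, 109362794 to 109401369), was at 69.8, 61.6 and 59.1 CPM in mutants and 56.9, 49.6 and 41.0 CPM in wild types. The lowest mutant library stood just above the highest wild-type library. Gna13 rose by 0.37 ± 0.13 on the log2 scale (SE, adjusted p = 0.044 by edgeR, 4.78e-07 with the replicate block), and its ratio was 0.30, 0.31 and 0.53 in batches 1, 2 and 3. The unblocked call was close to the threshold and was lost in 12 of 19 alternatives, among them DESeq2 size factors in edgeR (0.0714), the gene length offset (0.0941) and, without the block, DESeq2 (0.0634) and limma-voom (0.0512). Without the 10 most abundant genes it was 0.24 (adjusted p = 0.278), and among genes averaging at least 10 CPM 0.21 (0.0829). It was also lost without mutant replicate 1 (0.33), mutant replicate 2 (0.175), wild-type replicate 2 (0.147), wild-type replicate 3 (0.115), batch 1 (0.176) or batch 2 (0.275). Gna13 shares 151 exonic bases with the predicted antisense gene Gm11696, so its value is uncertain to that extent.

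Gnb1 encodes the beta subunit that pairs with gamma subunits to hold the alpha subunit and to signal (Entrez 14688, chromosome 4, 155491300 to 155559269). It had 80.9, 79.4 and 77.9 CPM in mutants and 64.2, 62.6 and 55.9 CPM in wild types. The groups did not overlap, and the spread among mutants was narrow. Mutant over wild type was 0.38 ± 0.11 on the log2 scale (SE, 1.30-fold, edgeR adjusted p = 0.0169), with 0.33, 0.34 and 0.48 within batches. Leaving out a library or batch ended the call for mutant replicate 1 (0.158), mutant replicate 2 (0.152), wild-type replicate 1 (0.0592), wild-type replicate 2 (0.0842), batch 1 (0.185) and batch 2 (0.252), as did leaving out the 10 most abundant genes (0.102). The log2 fold change stayed between 0.32 and 0.40 over all 9 fits that left out a library or batch. Among genes averaging at least 10 CPM it was 0.22 (edgeR adjusted p = 0.0158).

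Gng11, a gamma subunit gene (Entrez 66066, chromosome 6, 4003987 to 4008445), had 11150, 10034 and 8607 CPM in mutants. Wild types had 20738, 22027 and 16392 CPM. The highest mutant library stayed well below the lowest wild-type library, and batch 3 was the lowest in both genotypes. Mutant over wild type was -0.99 ± 0.13 on the log2 scale (SE, 0.504-fold, edgeR adjusted p = 2.49e-05). Within batches 1, 2 and 3 the log2 ratio was -0.90, -1.13 and -0.93. The call held in all 9 left-out fits, with a highest adjusted p of 0.000891, and the value ranged from -1.15 to -0.88 over 18 alternatives. It also held after an offset for gene length, which bears on this gene of 836 bases. Ranked by level per kilobase over all 9822 genes, Gng11 was number 10 in mutants and number 6 in wild types.

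Rgs10, a small RGS protein that limits agonist responses in mouse platelets (Entrez 67865, chromosome 7, 128373621 to 128419506), had 1862, 1720 and 1533 CPM in mutants. Wild types had 1864, 1908 and 1456 CPM. The groups overlapped throughout, and batch 1 was nearly equal in both. The fitted log2 difference between mutant and wild type was -0.03 ± 0.13 (SE, edgeR adjusted p = 0.893), and its sign turned without mutant replicate 3 (0.04) and with the gene length offset (0.07), neither of which was called.

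Rgs18, an RGS protein of the megakaryocyte lineage that acts on Gi and Gq (Entrez 64214, chromosome 1, 144752683 to 144775427), was at 3993, 3954 and 3498 CPM in mutants. Wild types had 4476, 4836 and 3565 CPM. The mutant was lower in each of the 3 batches, but the wild-type library of batch 3 lay within the range of the mutants. Mutant over wild type came to -0.17 ± 0.13 on the log2 scale (SE, edgeR adjusted p = 0.392), and with the replicate block it was -0.16 ± 0.07 (adjusted p = 0.0496 by edgeR and 0.0149 by DESeq2). Rgs18 also passed with library size alone (-0.24, adjusted p = 0.0118) and among genes averaging at least 10 CPM (-0.33, adjusted p = 0.00411). These 2 settings shifted the log2 fold changes of all genes fitted by a median of -0.083 and -0.164, so they are no separate evidence of a fall. Of 9 left-out fits Rgs18 passed in 2, without wild-type replicate 3 (-0.29, adjusted p = 0.0275) and without batch 3 (-0.22, adjusted p = 0.0174). It was closest to 0 without mutant replicate 3 (-0.11, adjusted p = 0.643). Its log2 fold change was negative in all 19 alternatives.

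Plcb2 encodes a phospholipase C that Gq and beta-gamma activate (Entrez 18796, chromosome 2, 118705003 to 118728661). It had only 2.76, 2.25 and 2.89 CPM in mutants and 2.24, 2.29 and 3.75 CPM in wild types, from 55 to 116 counts per library. No order between genotypes was seen, and the batches went in different directions, with log2 ratios of 0.30, -0.03 and -0.37. On the log2 scale mutant over wild type came to -0.08 ± 0.22 (SE, edgeR adjusted p = 0.847), and it was 0.22 without wild-type replicate 3 and 0.16 without batch 3, neither called.

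**Figure D1:**
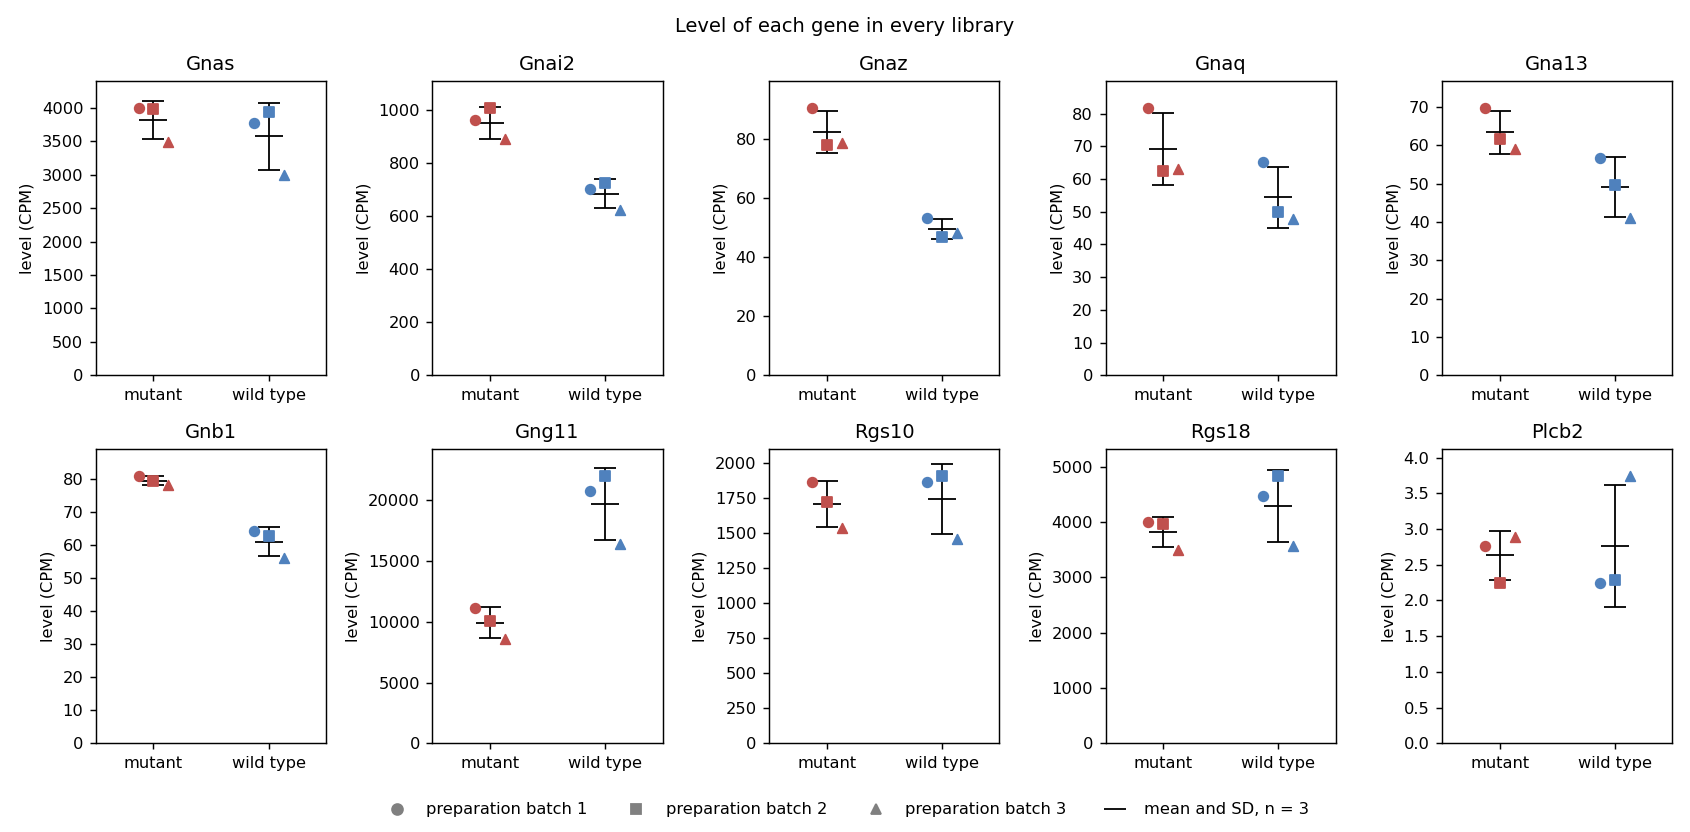
Level of each of the 10 genes in CPM (linear axis from 0) in the 3 mutant and 3 wild-type libraries, with a marker per preparation batch and black bars for the mean and SD. Gnai2, Gnaz, Gna13 and Gnb1 lie higher in every mutant library than in any wild-type library, and Gng11 lies lower.

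Across genes without regard to call, mutant libraries all lay above wild-type libraries for 4 of the 10 genes and below for 1. Over all genes 20.4% lay above and 15.9% below. The rises were similar from batch to batch for Gnai2 and Gnaz, while Gna13 and Gnb1 had their largest ratio in batch 3. The 5 called genes kept their direction in every batch, which follows from the lack of overlap between their genotypes. The erythroid markers were high in batch 1 in both genotypes, and their part in these values was not tested.

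**Figure D2:**
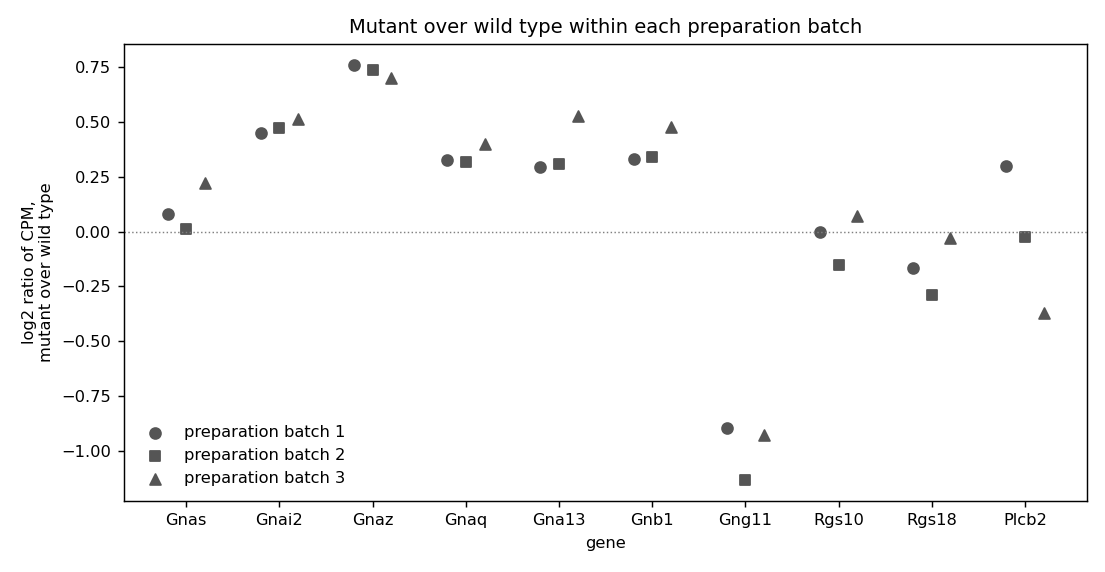
Log2 ratio of CPM, mutant over wild type, within each of the 3 preparation batches for the 10 genes. Gnas, Gnai2, Gnaz, Gnaq, Gna13 and Gnb1 are above 0, with Gnas as low as 0.01 in batch 2, and Gng11 and Rgs18 are below 0 in every batch, while Rgs10 and Plcb2 change sign between batches.

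Divided by gene length, the 10 genes spanned a wide range, and their order was the same in both genotypes. Gng11 led with 11879 ± 1525 CPM per kilobase in mutants and 23587 ± 3532 in wild types (SD, n = 3 each). Rgs18 (2052 ± 148 and 2309 ± 352) and Rgs10 (1948 ± 188 and 1992 ± 285) followed, and these neighbours overlapped between libraries, although Rgs18 was above Rgs10 within every library. Next came Gnas, at 630.5 ± 46.9 and 589.0 ± 83.0 CPM per kilobase, and Gnai2, at 438.0 ± 27.6 and 314.4 ± 25.1. The remaining alpha and beta genes were far lower. This order depends on the deposited gene lengths, which were 6061 bases for Gnas and 875 for Rgs10. Gnas had several promoter windows, and which of its transcripts were present was not tested. Not divided by length, Gnas averaged 3821 CPM in mutants and 3570 CPM in wild types. In the same order Rgs18 averaged 3815 and 4292 CPM and Rgs10 1705 and 1743 CPM.

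Gnaz had 33.9 ± 2.90 CPM per kilobase in mutants and 20.3 ± 1.42 in wild types, and Gnb1 had 25.3 ± 0.469 and 19.4 ± 1.41. In mutants Gnaz stood above Gnb1 without overlap, while in wild types the 2 genes overlapped. Gnaq (12.3 ± 1.95 and 9.65 ± 1.68) and Gna13 (10.2 ± 0.908 and 7.93 ± 1.28) overlapped in both genotypes, and Plcb2 was lowest at 0.512 ± 0.0663 and 0.536 ± 0.166.

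The make-up of the alpha subunit pool differed between genotypes. Of the summed level per kilobase of the 9 measured alpha genes, Gnas held 56.0, 55.3 and 54.9% in mutants and 62.2, 63.0 and 59.8% in wild types. The share of Gnai2 was 37.5, 39.1 and 38.9% in mutants and 32.3, 32.3 and 34.6% in wild types. For both genes the genotypes were apart, with the share of Gnas lower and that of Gnai2 higher in every mutant library. The level of Gnas itself was 630.5 ± 46.9 CPM per kilobase in mutants and 589.0 ± 83.0 in wild types. It was not called, so the lower share does not mean a lower level. The Gi class as a whole held 42.2 ± 0.707% in mutants and 36.1 ± 1.61% in wild types, while the Gq class (1.09 ± 0.149% and 1.03 ± 0.148%) and the class of Gna12 and Gna13 (1.17 ± 0.0537% and 1.20 ± 0.0864%) had the same small part within their spread (SD, n = 3 each). These shares are descriptions, without a test, and they depend on the deposited lengths, such as 6061 bases for Gnas.

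Summed over measured genes, the alpha family had 1137 ± 75.6 CPM per kilobase in mutants and 953.3 ± 110.0 in wild types, and the beta family had 77.2 ± 3.38 and 65.6 ± 5.18 (SD, n = 3 each). The gamma family had 12196 ± 1577 and 23891 ± 3576 CPM per kilobase, so it followed Gng11, which held 97.4 ± 0.323% of it in mutants and 98.7 ± 0.0407% in wild types. The RGS family had 4009 ± 330.0 and 4311 ± 633.5 CPM per kilobase. Nearly all of this came from Rgs18 (51.2 ± 0.943% and 53.5 ± 0.681%) and Rgs10 (48.6 ± 0.960% and 46.2 ± 0.668%).

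**Figure D3:**
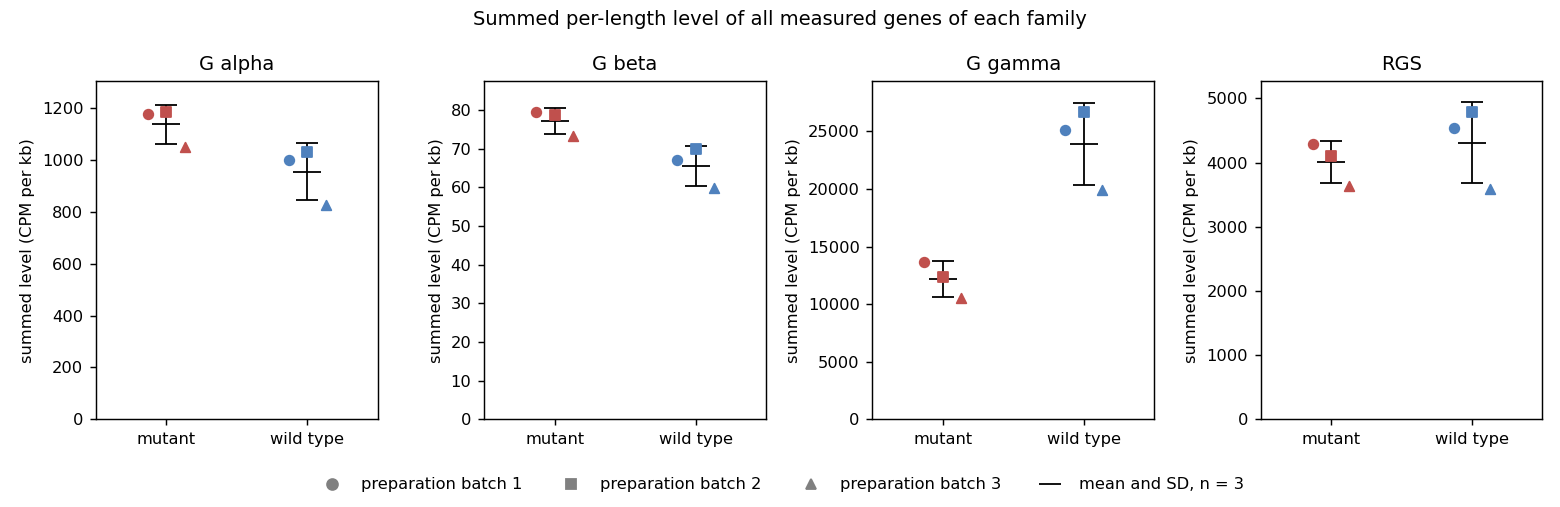
Summed level in CPM per kilobase (linear axis from 0) of all measured alpha, beta, gamma and RGS genes in each library, with markers for the preparation batch and black bars for the mean and SD. The gamma sum is lower in every mutant library, the beta and alpha sums are higher in mutants, and the RGS sums overlap.

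The other alpha genes were mostly low. Of 9 measured alpha genes 4 (44.4%) rose and 0 fell, beside 12.9% and 9.16% of all genes, and the blocked counts were 5 and 0, beside 22.0% and 18.0%. The median log2 fold change was 0.35. Beside Gnaz, Gnai2 and Gna13 the fourth was Gnal, which encodes a stimulatory subunit best known from olfactory neurons. It averaged 4.43 ± 0.666 CPM in mutants and 1.98 ± 0.492 CPM in wild types (SD, n = 3 each), with a log2 fold change of 1.17 ± 0.21 (SE, adjusted p = 0.000413 by edgeR) and no overlap between genotypes. Gnal shares 852 exonic bases with the oppositely transcribed Mppe1, which was also measured, so its value is uncertain.

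Of 4 measured beta genes Gnb1 rose and 0 fell, beside 12.9% and 9.16% of all genes. Gnb2 (0.17, adjusted p = 0.331) was called higher with the block by edgeR (0.0351) and not by DESeq2 (0.0552), which made 2 and 0 by edgeR, beside 22.0% and 18.0%. The median was 0.19. Gnb2 was the most abundant beta gene per kilobase, at 61.9 ± 1.15% of the beta sum in mutants and 64.8 ± 0.509% in wild types, while Gnb1 held 32.7 ± 0.936% and 29.6 ± 1.01%.

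Of 8 measured gamma genes 1 (12.5%) rose and 3 (37.5%) fell, with the same counts under the block and a median of -0.34. The share that rose was close to the 12.9% of all genes and below the blocked 22.0%, and 9.16% of all genes fell, or 18.0% with the block. Gng12, another gamma subunit, averaged 41.0 ± 2.85 CPM in mutants and 22.2 ± 2.38 CPM in wild types (SD, n = 3 each), so it moved opposite to Gng11. The fitted log2 difference between mutant and wild type was 0.88 ± 0.12 (SE, edgeR adjusted p = 2.41e-05). Gng2 (-0.53, adjusted p = 0.0347) and Gng10 (-0.50, adjusted p = 0.0479) fell at levels of 4.75 and 5.45 CPM in mutants and 6.87 and 7.70 CPM in wild types. Both calls were lost with library size alone (0.125 for Gng2 and 0.15 for Gng10) and with the 10 most abundant genes left out (0.119 and 0.1495), and that of Gng10 also by DESeq2 (0.0517), by limma-voom (0.0528) and with the gene length offset (0.0908). Most left-out fits lost them too: without mutant replicates 1 (0.11 for Gng2 and 0.141 for Gng10) or 2 (0.097 and 0.127), wild-type replicate 3 (0.153 and 0.186), batch 1 (0.0757 and 0.185) or batch 2 (0.144 and 0.101), and for Gng10 also without wild-type replicate 1 (0.0622). The B cell marker sum was lower in the mutant within each batch as well, and its part in these 2 results was not tested. Gng10 shares 946 of 1314 exonic bases with the predicted gene Gm20503 on the same strand. Gng2 shares 897 of 4390 with the oppositely transcribed predicted gene Gm48283, so both values are uncertain.

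Of 9 measured RGS genes 2 (22.2%) rose and 1 (11.1%) fell, with a median of -0.03, beside 12.9% and 9.16% of all genes. The blocked counts were 2 and 3 (22.2% and 33.3%), of which the share that rose was that of all genes (22.0%), and 18.0% of all genes fell. Rgs6, whose product pairs with the beta subunit Gnb5, averaged 5.27 ± 0.906 CPM in mutants and 10.7 ± 1.37 CPM in wild types (SD, n = 3 each). Mutant over wild type came to -1.02 ± 0.16 on the log2 scale (SE, edgeR adjusted p = 0.000109), and it was called in all 9 left-out fits. Rgs8 (0.84, adjusted p = 0.0133) and Rgs12 (0.61, adjusted p = 0.0299) rose at only 2.10 and 3.15 CPM in mutants and 1.18 and 2.06 CPM in wild types. The call of Rgs8 was lost without the 10 most abundant genes (0.0531) and without mutant replicate 2 (0.067), wild-type replicate 2 (0.0517), wild-type replicate 3 (0.0531) or batch 2 (0.15). That of Rgs12 was lost by DESeq2 (0.0579, and 0.0843 with the block), with upper-quartile factors (0.0505), with library size alone (0.137), without the 10 most abundant genes (0.107) and in 7 of 9 left-out fits: without mutant replicate 1 (0.0884) or 2 (0.148), wild-type replicate 2 (0.155) or 3 (0.0636), or batch 1 (0.0657), 2 (0.359) or 3 (0.0516). Rgs19 had -0.36 (adjusted p = 0.237) and was called lower with the block by edgeR (0.0236) and not by DESeq2 (0.258).

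**Figure D4:**
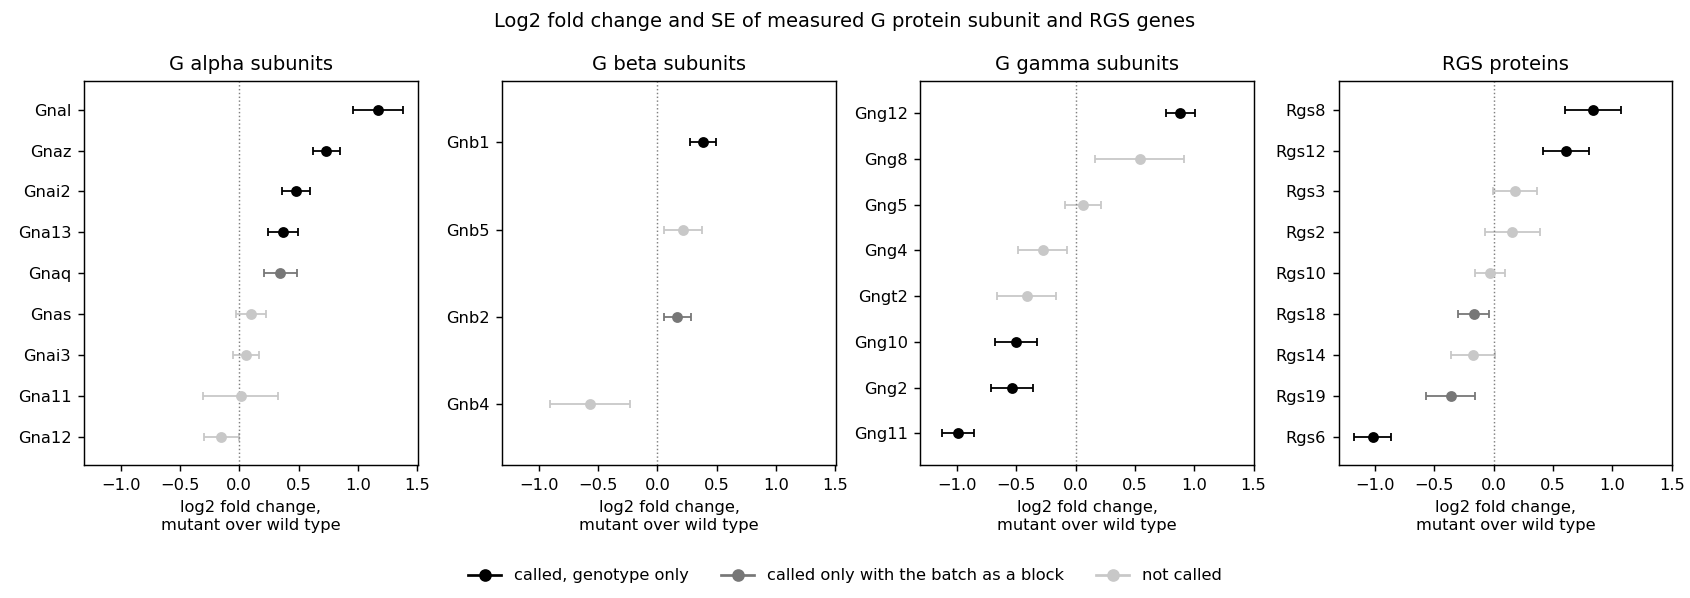
Log2 fold change, mutant over wild type, with its SE for every measured alpha, beta, gamma and RGS gene, from the fit with genotype only. Black points are called, dark grey points only with the preparation batch as a block, and light grey points in neither. Gng12 and Gng11 are the highest and lowest gamma genes at 0.88 and -0.99, and among RGS genes Rgs18 and Rgs10 lie near 0.

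Effectors of G proteins held 5 higher (35.7%) and 2 lower (14.3%) of 14 measured genes, at a median of -0.07, beside 12.9% and 9.16% of all genes. The blocked counts were 5 and 3 (35.7% and 21.4%), beside 22.0% and 18.0%, so the share that fell lay near that of all genes. Plcb1, which Gq activates as it does Plcb2, averaged 16.3 ± 0.699 CPM in mutants and 46.6 ± 4.82 CPM in wild types (SD, n = 3 each). Its log2 fold change of -1.52 ± 0.12 was the largest fall of the list (SE, adjusted p = 4.35e-08 by edgeR), at -1.55, -1.68 and -1.31 in batches 1, 2 and 3. Per kilobase Plcb1 was the most abundant of the 4 phospholipase C beta genes in wild types, at 6.55 ± 0.678 CPM per kilobase. Plcb3 (0.14, adjusted p = 0.720) and Plcb4 (-0.12, adjusted p = 0.699) were not called. The adenylyl cyclase genes Adcy5 (0.98, adjusted p = 1.18e-05), Adcy6 (0.70, adjusted p = 0.000349) and Adcy9 (0.56, adjusted p = 0.00414) rose. Pik3cg, the phosphoinositide 3-kinase that beta-gamma activates, rose by 0.65 on the log2 scale (adjusted p = 0.000332), while Pik3r5, its regulatory subunit, had -0.48 (adjusted p = 0.118, and with the block 0.0124 by edgeR and 0.244 by DESeq2).

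Arhgef12 and Arhgef1, effectors of the G13 class, moved in opposite directions. Arhgef12 averaged 700.7 ± 63.4 CPM in mutants and 469.9 ± 66.0 CPM in wild types (SD, n = 3 each) and rose by 0.58 ± 0.13 on the log2 scale (SE, adjusted p = 0.0022 by edgeR). Arhgef1, which leukocytes also express, had 37.3 ± 5.30 CPM in mutants and 50.3 ± 10.7 CPM in wild types (-0.43, adjusted p = 0.0373), with overlap between genotypes. The B cell marker sum was lower in mutants as well, and its part in the result for Arhgef1 was not tested. Arhgef1 was also not called with upper-quartile factors (0.0527), with library size alone (0.188), without the 10 most abundant genes (0.128) or by limma-voom (0.0591), and without wild-type replicate 3 its log2 fold change was -0.25. Left-out fits that ended a call were those without mutant replicate 1 for Arhgef12 (0.0504) and Arhgef1 (0.136), without batch 2 for Arhgef12 (0.0584), Arhgef1 (0.0724) and Adcy9 (0.107), and for Arhgef1 also without mutant replicate 2 (0.0628), wild-type replicate 3 (0.17) or batch 1 (0.0729).

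Among 13 measured accessory genes 3 (23.1%) rose and 0 fell, with a median of 0.01, beside 12.9% and 9.16% of all genes. The blocked counts were 5 (38.5%) and 0, beside 22.0% and 18.0%. Ppp1r9b encodes spinophilin, a scaffold that binds RGS10 and RGS18 in platelets. It averaged 198.2 ± 16.8 CPM in mutants and 112.2 ± 5.44 CPM in wild types (SD, n = 3 each), a log2 fold change of 0.82 ± 0.11 (SE, adjusted p = 2.58e-05 by edgeR). Arrb1, which encodes an arrestin that uncouples receptors from G proteins, rose by 0.62 (adjusted p = 0.00056), and its call was lost without batch 2 (0.0544). Ric8a, a chaperone of alpha subunits, rose by 0.49 (adjusted p = 0.00279), and its call was lost without mutant replicate 1 (0.0534), mutant replicate 2 (0.0501), batch 1 (0.0957) or batch 2 (0.109). Its exons share bases with the oppositely transcribed Bet1l and Sirt3, both measured, so its value is uncertain. Grk5 (0.25, adjusted p = 0.148) and Arrb2 (0.24, adjusted p = 0.157) were called higher with the block (0.000674 and 0.0016).

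The receptor list held 4 higher (28.6%) and 2 lower (14.3%) of 14 measured genes, with a median of 0.13, beside 12.9% and 9.16% of all genes. Whether each listed receptor couples to a G protein in mouse platelets was not tested. The blocked counts were 5 (35.7%) and 2 (14.3%), beside 22.0% and 18.0%, so the share that fell lay near that of all genes. Ptger3, a prostaglandin E2 receptor that couples to Gi, averaged 14.8 ± 2.69 CPM in mutants and 6.0 ± 2.08 CPM in wild types (SD, n = 3 each), and rose by 1.31 ± 0.21 on the log2 scale (SE, edgeR adjusted p = 0.00046). The thrombin receptor genes F2rl3 (0.94, adjusted p = 0.00145), F2r (0.56, adjusted p = 0.00815) and F2rl2 (0.55, adjusted p = 0.00092) rose, while the Gs coupled prostacyclin receptor gene Ptgir fell by 0.61 (adjusted p = 0.000846). F2rl3 averaged only 3.93 CPM in mutants and 2.05 CPM in wild types. Lpar6 fell by 1.08 (adjusted p = 0.0237) at 0.564 ± 0.283 CPM in mutants and 1.20 ± 0.152 CPM in wild types, and it lies within Rb1, which was also measured, so its value is uncertain. The ADP receptor genes P2ry12 (-0.09, adjusted p = 0.642) and P2ry1 (0.07, adjusted p = 0.744) were not called.

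Calls lost among the 9 left-out fits were those of F2r without mutant replicate 1 (0.0927), mutant replicate 2 (0.0735), batch 1 (0.0982) or batch 2 (0.103), and F2rl2 without batch 1 (0.0536) or batch 2 (0.0534). The call of F2r was also lost without the 10 most abundant genes (0.101). That of Lpar6 was lost with the block in DESeq2 (-1.17, adjusted p = 0.0611) and without mutant replicate 3 (0.105), wild-type replicate 2 (0.0579), batch 2 (0.0982) or batch 3 (0.0869). Adra2a, the epinephrine receptor that acts through Gnaz, had 0.66 (adjusted p = 0.0932) and was called higher with the block by edgeR (0.0327) and not by DESeq2 (0.288). Its level was only 1.24 CPM in mutants and 0.79 CPM in wild types on average. Of the other called genes, Gng12, Plcb1, Adcy6, Arhgef12, Rgs6, Rgs8 and Rgs12 share 70 to 1209 exonic bases with an oppositely transcribed gene outside the tables, and their values are uncertain to that extent.

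**Figure D5:**
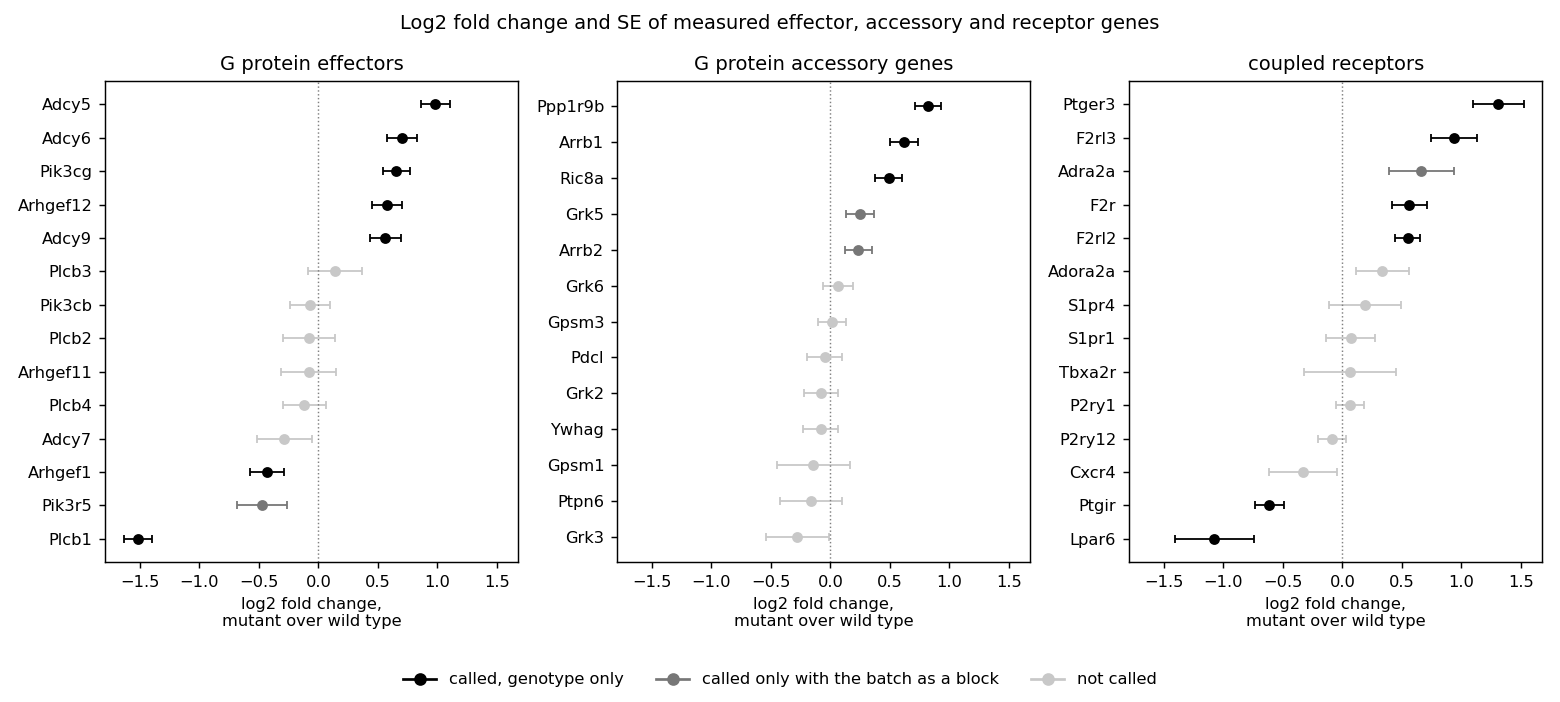
Log2 fold change, mutant over wild type, with its SE for every measured effector, accessory and receptor gene, from the fit with genotype only. Black points are called, dark grey points only with the preparation batch as a block, and light grey points in neither. Plcb1 is the lowest effector at -1.52, and Ptger3 the highest receptor at 1.31.

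Among 2814 genes averaging at least 10 CPM, those whose profile over the 6 libraries was closest to each of the 10 genes were found by the root mean square difference of log2 CPM, each gene centred on its own mean. For Gng11 they were Atp6v1f (0.0475), a proton pump subunit gene, and the ephrin receptor gene Ephb2 (0.0511). For Gnaz they were Myh9 (0.0223), the heavy chain gene of nonmuscle myosin, and Pmp22 (0.0324). Homer3 (0.0184) and Adi1 (0.0234) were closest to Gnai2, Clk3 (0.0234) and Arhgap10 (0.0246) to Gnb1, Clcn3 (0.0325) and Ube2h (0.0325) to Gna13, and Ypel2 (0.0249) and Slc6a6 (0.0434) to Gnaq. Atf2 (0.0113) and Tmem123 (0.0192) were closest to Gnas, Cyb5a (0.0157) and Lgmn (0.0278) to Rgs10, and Ube2b (0.0238) and mt-Rnr2 (0.0267) to Rgs18. Plcb2 had no close match, with Irf8 (0.125), a transcription factor gene of leukocytes, and Sp100 (0.126) nearest.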

How the data were processed

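PolyA RNA of pooled platelet suspensions was sequenced from 3 mutant and 3 wild-type pools. Per the file headers, the authors' tables hold a count and a length for each Entrez gene. The submitters' processing notes name CASAVA 1.8.2, Subread and featureCounts with mm10, while settings, strand among them, were not given in the sources used here. In every deposited gene the third highest CPM was at least 0.507. RefSeq (GRCm38.p6, the assembly of mm10) named 9636 of 9822 genes, and exon overlaps came from GENCODE.

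edgeR 4.0.16 (R 4.3.3) was run on the counts with TMM scaling, filterByExpr, which removed 0 genes, and a robust two-sided quasi-likelihood fit, adjusted over all genes. The SE is the log2 fold change over the root of F. CPM uses TMM-scaled totals. The fit was run on simulated counts that held no batch effect, so this does not test it on libraries paired by batch. Alternatives used limma 3.58.1 and DESeq2 1.42.0. A gene length offset (loess with a span of 0.5) was chosen after seeing the data. Members and lists were chosen with earlier results of these data known. Named genes are all members, every called gene of the lists and the 2 closest profiles per member. Values of other list genes were added after they were seen.

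The labels give every batch 1 pool per genotype, so the batch pairs the libraries. Deviations from group means correlated at 0.520, 0.350 and 0.547 within batches and at most at -0.0358 between them. Centring on the group mean by itself pushes values between batches down where those within batches are positive, so the negative values are no separate evidence. Libraries of a group differed beyond sampling noise (mean chi-square per gene at least 14.5). How many animals a pool held is unknown here, and p-values measure only the spread between pools.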

Additional observations from a re-analysis of the deposited data

How the results depend on the processing

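Leaving out the filter repeated the fit, since it removed 0 genes, and is not counted here. Of 188 values of the 10 genes under the other alternatives, 149 kept direction and side of the threshold, 23 lost the call, 10 gained it and 6 turned sign, none of those called. Gnas was at -0.0621 among genes averaging at least 10 CPM and Rgs10 at 0.0701 with the gene length offset. With 1 library or batch left out, Gnas ranged from -0.0132 to 0.159, Rgs10 from -0.146 to 0.0391 and Plcb2 from -0.280 to 0.220. The cause was not tested. Testing only genes averaging at least 10 CPM lowered log2 fold changes of those genes by a median of 0.164, and no scaling moved the median of all genes by over 0.1.

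With the replicate block in edgeR 2164 genes were higher and 1765 lower, against 1266 and 900 without it, and among the 10 genes 5 were higher and 2 lower. The block in DESeq2 also gave 2 lower. Calls were then 2 in the beta list, 5 in the RGS list and 5 in the accessory list by edgeR, and 5 accessory calls by DESeq2. With library size alone 2 of the 10 genes were lower and 2 gamma genes were called. Without the 10 most abundant genes, which include Gng11, 2 of the 10 genes were higher and 0 lower, 743 genes were higher, and calls were 0 beta, 1 gamma and 1 RGS. Among genes averaging at least 10 CPM 725 genes were higher, 2 of the 10 were lower, and calls were 2 alpha, 2 gamma and 1 RGS, with fewer genes tested and the shift given above. Not divided by length, the share of the alpha sum, mutant minus wild type, was -4.28 percentage points for Gnas (-6.24 per kilobase) and 3.50 for Gnai2 (5.45 per kilobase).

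Fits that each left out 1 library or 1 batch gave 485 to 1387 genes higher and 520 to 1002 lower, and 1 to 5 of the 10 genes higher and 1 to 2 lower. Calls over these fits were 2 to 5 in the alpha list, 0 to 1 in the beta list, 2 to 4 in the gamma list, 1 to 4 in the RGS list, 1 to 4 in the accessory list, 4 to 7 in the effector list and 3 to 6 in the receptor list. With fewer samples per fit such losses also reflect fewer degrees of freedom. None of these fits had the block. Leaving out 1 library also breaks the pair of its batch, so values can move with the batch as well.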
